A study of Coffea canephora with 12 samples.

Results

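The genes described here are those of *Coffea canephora* (Robusta coffee) that stood far lower 21 days after the induction of somatic embryogenesis (dai) than in every library taken earlier. They were chosen by their level in CPM, a gene's read count scaled so that the reads in genes of every library add up to the same total, with 0.5 added. A gene was a member if the higher of its 2 libraries of 21 dai was at most 0.25 times the lowest of the other 10 libraries. The rule found 97 of the 25574 genes counted, which is 0.379%. Only 13376 genes reached 1.5 CPM in each of the 10 other libraries, the lowest level at which the rule can be met, and the members are 0.725% of these.

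The 12 libraries cover 6 time points with 2 libraries each. At 14 days before induction (dbi), the study's control, leaves came from in vitro plantlets on MS salts without growth regulators. At 9 and 0 dbi the plantlets stood on MS salts with naphthaleneacetic acid (NAA, an auxin) and kinetin (KIN, a cytokinin). At 1, 2 and 21 dai the samples were circular leaf explants in liquid medium of Yasuda salts with benzyladenine (BA, another cytokinin), kept in the dark. The series text calls the 2 libraries of a time point technical replicates of 1 biological sample, so each p-value measures only the spread between libraries. Their counts differed by far more than sampling noise, with a chi-square per degree of freedom of 33.4 (1 dai) to 299.7 (0 dbi). The source of this difference was not tested. Explant, medium and light changed together at induction and cannot be told apart.

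Somatic embryogenesis is the formation of embryos from body cells without fertilization. In leaf explants, differentiated cells can leave their leaf programme, divide and organize into embryos, and auxins and cytokinins are the growth regulators most used to start this. In *C. canephora* embryos form on the leaf explant itself after some weeks in culture. In bulk samples of this kind, fewer cells of a type and less RNA of a gene per cell cannot be told apart.

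Reads in genes ran from 10091539 to 36525500 per library, with a median of 22765039, and replicate 1 of 21 dai was the shallowest. For a gene with 0 reads, depth alone leaves room for a level of 0.0821 to 0.297 CPM, depending on the library (3 counts, counting error only). Low mapping quality had removed 11.2% to 20.3% of the reads per library. The share was above 15% in 4 libraries, which are replicate 1 of 14 dbi, 0 dbi, 2 dai and 21 dai. The fewest genes had any read at 9 dbi (17809 and 17204) and 1 dai (19116 and 18199). In the other libraries 19833 to 22257 genes had reads. The part of this in the comparisons with 9 dbi or 1 dai was not tested. The gene IDs all matched the AUK_PRJEB4211_v1 annotation, which gives no gene descriptions, so no role is given for a member and the labelled leaf tissue could not be checked against marker genes. Of the 18 *CcGH3* genes, which encode enzymes that conjugate auxin or jasmonate with amino acids and are a family the study followed, 0 are members. *CcGH3.5* (Cc05_g06700), the homolog of the *Arabidopsis* jasmonate-conjugating enzyme JAR1, was at 1.88 and 3.63 CPM at 21 dai, but also at 3.27 CPM in replicate 2 of 1 dai.

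The members went down in a pair of steps, the first between 0 dbi and 1 dai and the second between 2 and 21 dai. Their median level in a library was 80.0 to 149.6 CPM over the 6 pretreatment libraries, 27.2 to 35.4 CPM over the 4 libraries of 1 and 2 dai, and 1.68 and 2.75 CPM in the 2 libraries of 21 dai. Together they held 2.18% to 5.03% of all reads in genes in the pretreatment, 0.779% to 1.33% at 1 and 2 dai, and 0.0611% and 0.101% at 21 dai. The median of the 13376 genes that could meet the rule stayed between 29.9 and 38.3 CPM in all 12 libraries. The fall to 21 dai is what chose the members and is given without a test. The early levels entered the rule through the lowest of the 10 libraries. That library was at 1 dai for 32 members and at 2 dai for 50. The comparisons of 1 and 2 dai below therefore draw in part on values that the rule used.

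**Figure D1:**
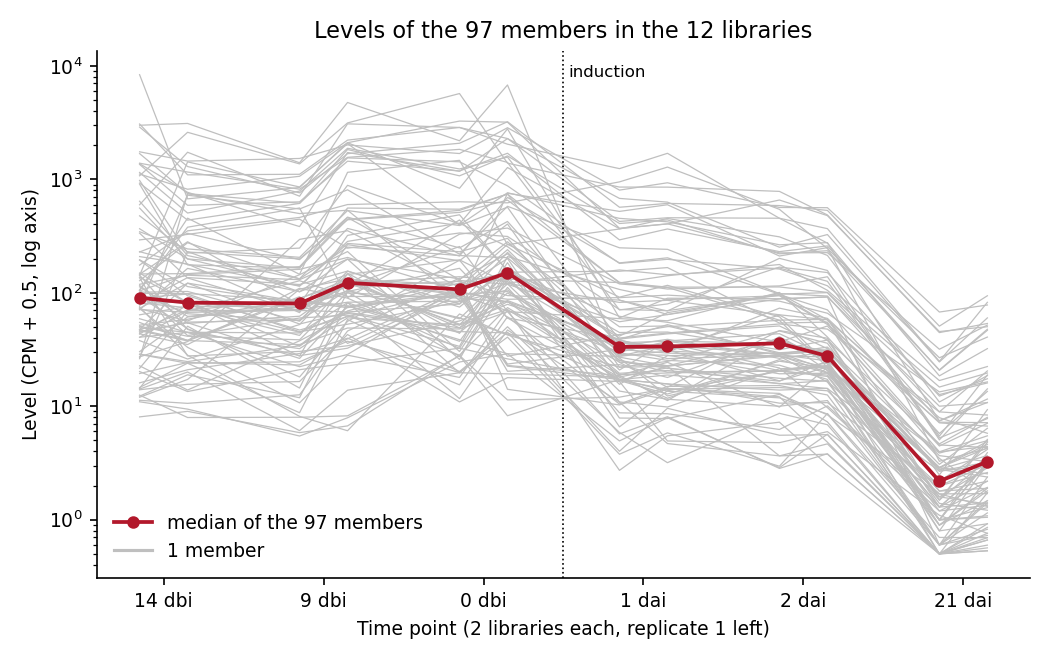
Level of each of the 97 members (grey lines, joining its 12 libraries) and their median (red), as CPM + 0.5 on a log axis, by time point, with replicate 1 left of replicate 2. The median lies between 80.0 and 149.6 CPM in the pretreatment, between 27.2 and 35.4 CPM at 1 and 2 dai, and at 1.68 and 2.75 CPM at 21 dai.

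At 21 dai little was left of most members. The mean level of a member there was 1.84% of its pretreatment mean in the median (0.0253% to 15.9%) and 7.67% of its 2 dai mean (0.349% to 19.3%). In all, 25 members were under 1 CPM in both libraries of 21 dai, and 17 were still at 10 CPM or more in both. None of the 97 had 0 reads in both libraries. There were 11 with 0 reads in replicate 1 and 0 members without reads in replicate 2, the deeper library. Of the 97 members, 4 had 3 reads or fewer in each library (Cc03_g14910, Cc06_g21080, Cc11_g07700 and Cc11_g17510). The level in replicate 2 was above that in replicate 1 for 83 members (85.6%), and for 65.7% of the 13279 other genes that could meet the rule. Replicate 1 of 21 dai is also among the 4 libraries with more reads of low mapping quality, and the part of this in the difference was not tested.

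**Figure D2:**
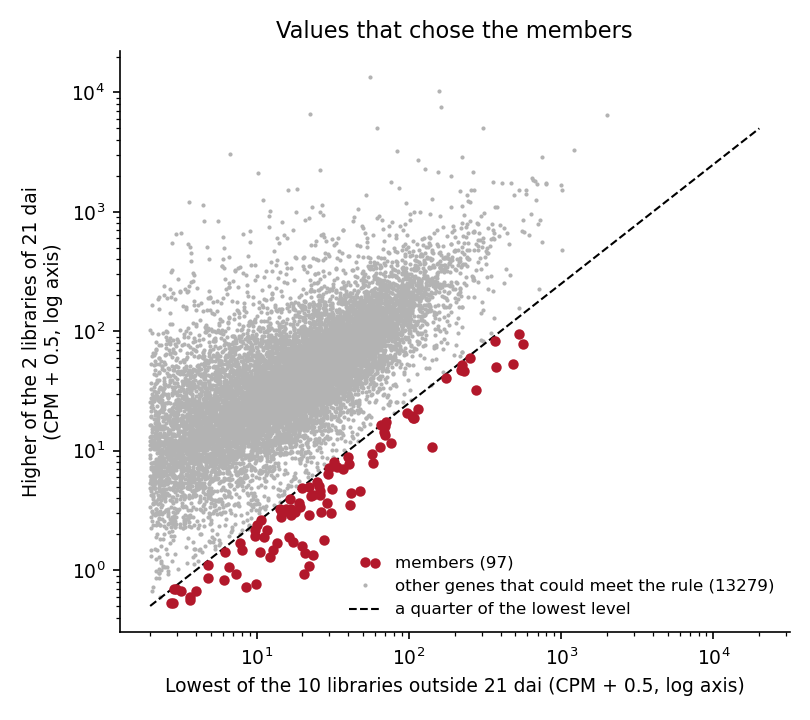
The values that chose the members: the higher of the 2 libraries of 21 dai against the lowest of the other 10 libraries, both as CPM + 0.5 on log axes, for the 97 members (red) and the 13279 other genes that could meet the rule (grey). The dashed line marks a ratio of 0.25, and members lie on or below it.

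By the ratio that chose them, members ran from 4.03-fold to 52.4-fold between the lowest earlier library and the higher library of 21 dai, with a median of 5.49-fold. Just inside the limit stood Cc07_g14700, with 15.9 CPM as its higher value at 21 dai and 65.6 CPM as its lowest elsewhere, Cc05_g00330 (7.48 and 31.7 CPM) and Cc08_g03960 (17.0 and 70.2 CPM). Just outside it were Cc06_g19030 (1.72 and 8.31 CPM), Cc10_g01120 (35.3 and 140.3 CPM) and Cc04_g04390 (25.8 and 102.5 CPM). Their levels differ widely, but the ratios are close, 0.247 to 0.248 inside the limit and 0.252 to 0.255 outside it.

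The member with the widest ratio was Cc10_g11890. It had 1112 and 818 CPM at 14 dbi, 1064 and 2103 CPM at 9 dbi, 834 and 2784 CPM at 0 dbi, 59.6 and 89.1 CPM at 1 dai, 88.2 and 91.4 CPM at 2 dai, and 0.0991 and 0.648 CPM at 21 dai. Its last values rest on 1 and 20 reads. All 6 pretreatment libraries lay above the 4 libraries of 1 and 2 dai, and these above both of 21 dai, so that the gene went down in separate steps.

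The next ratios belonged to genes that changed less on the way. Cc10_g09590 had 135 and 27.3 CPM at 14 dbi, 29.9 and 33.6 CPM at 9 dbi, 56.0 and 85.0 CPM at 0 dbi, 35.8 and 33.2 CPM at 1 dai, 20.1 and 23.6 CPM at 2 dai, and 0.297 and 0.421 CPM at 21 dai. Cc01_g20370 had 28.3 and 24.3 CPM at 14 dbi, 33.6 and 74.3 CPM at 9 dbi, 95.9 and 27.1 CPM at 0 dbi, 42.4 and 49.8 CPM at 1 dai, 56.7 and 21.6 CPM at 2 dai, and 0.495 and 0.583 CPM at 21 dai. In Cc01_g20370 the pretreatment and the first days of induction overlapped throughout, and only 21 dai stood apart. The other members among the 12 widest ratios were Cc01_g17230, Cc08_g08040, Cc00_g24160, Cc07_g01090, Cc11_g15340, Cc01_g08950, Cc07_g05830, Cc00_g16360 and Cc07_g18010, with 10.4-fold to 17.5-fold between the lowest earlier library and the higher one of 21 dai. Of these, Cc07_g01090 kept the most reads, at 6.94 and 10.3 CPM at 21 dai, against 142 to 2067 CPM over its 10 earlier libraries.

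**Figure D3:**
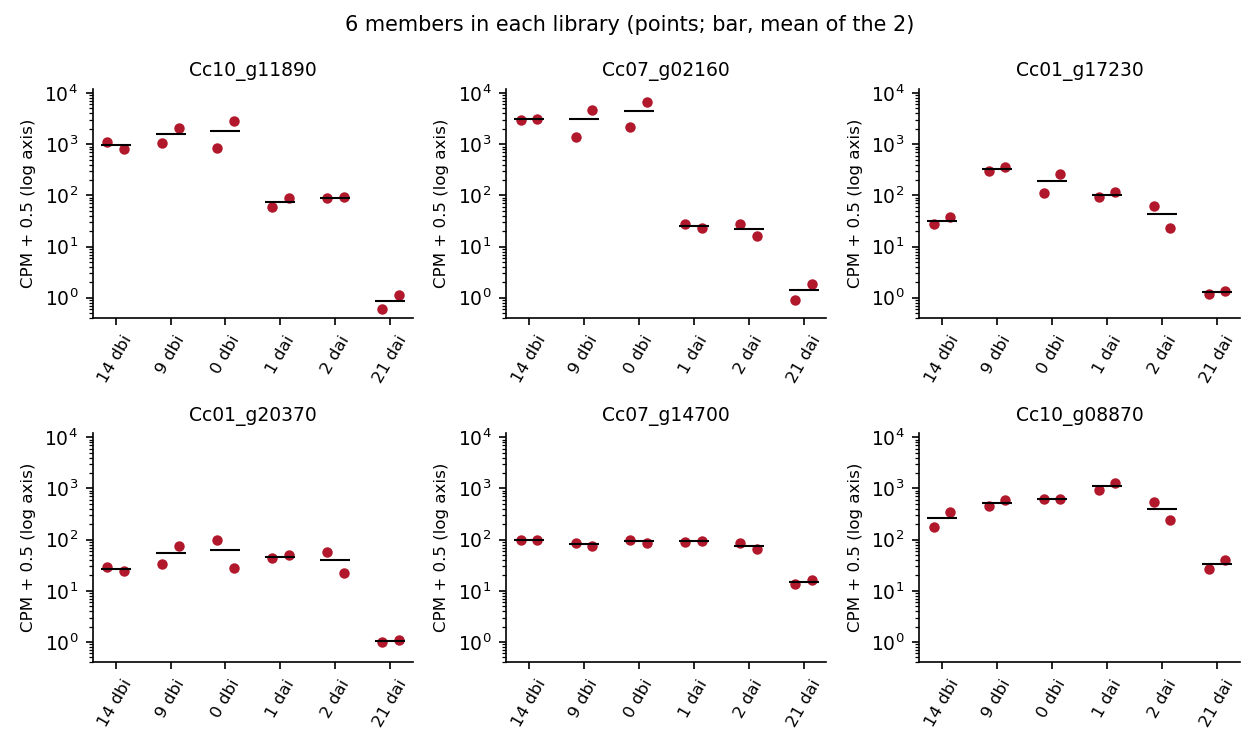
Levels of 6 members in each library (points) and the mean of the 2 libraries (bars), as CPM + 0.5 on a log axis, by time point. Cc10_g11890 and Cc07_g02160 were at 89.1 and 26.6 CPM at most at 1 dai and below 2 CPM at 21 dai, Cc01_g17230 was highest at 9 dbi, Cc01_g20370 and Cc07_g14700 overlapped between pretreatment and 2 dai, and Cc10_g08870 was highest at 1 dai.

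The 10 members with the highest mean CPM before 21 dai were Cc07_g02160, Cc09_g09500, Cc11_g15250, Cc03_g08880, Cc11_g16910, Cc05_g00840, Cc09_g01110, Cc02_g11770, Cc10_g11890 and Cc01_g15890. Cc07_g02160 had 2997 and 3109 CPM at 14 dbi, 1400 and 4758 CPM at 9 dbi, 2187 and 6787 CPM at 0 dbi, 26.6 and 22.2 CPM at 1 dai, 27.2 and 15.9 CPM at 2 dai, and 0.396 and 1.39 CPM at 21 dai. It had therefore lost most of its level by 1 dai, and what the rule measured was the fall of the remainder. Cc09_g01110 had 1748 and 1449 CPM at 14 dbi, 1527 and 2011 CPM at 9 dbi, 1688 and 2851 CPM at 0 dbi, 804 and 932 CPM at 1 dai, 565 and 562 CPM at 2 dai, and 67.2 and 77.6 CPM at 21 dai. In this gene the pretreatment, 1 dai, 2 dai and 21 dai did not overlap.

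Replicates were further apart for some other abundant members. Cc09_g09500 had 8360 and 673 CPM in the 2 libraries of 14 dbi, and from 370 to 657 CPM at 1 and 2 dai, so that its control level is uncertain. Cc03_g08880 had 597 and 1732 CPM at 14 dbi, 710 and 3084 CPM at 9 dbi and 2865 and 2040 CPM at 0 dbi. At 1 dai it had 1242 and 1696 CPM, within the range of its pretreatment libraries. Its fall from 0 dbi to 1 dai was not called (log2 fold change −0.95, SE 0.73, edgeR adjusted p = 0.462). It was at 454 and 274 CPM at 2 dai and 18.03 and 31.7 CPM at 21 dai.

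Few members were called between time points of the pretreatment, and few of all genes tested were. Time and medium changed together after 14 dbi and cannot be told apart. At 9 dbi against 14 dbi, 2 of the 97 members were higher at an adjusted p under 0.05 by edgeR's quasi-likelihood test (0.0337% of the 20745 genes tested were called higher). In the lower direction it called 0 members (0.501% of all genes tested). At an unadjusted p under 0.05 there were 7 members higher and 6 lower, and 3309 of the 20745 genes tested in either direction. DESeq2 called 2 members lower, with the share of all genes not given here. Cc01_g17230 had 295 and 352 CPM at 9 dbi, against 26.8 and 36.7 CPM at 14 dbi (log2 fold change 3.30, with a standard error, SE, of 0.54 and an edgeR adjusted p = 0.0406). Cc10_g02660 had 107 and 132 CPM at 9 dbi, against 11.5 and 16.7 CPM at 14 dbi (3.03, SE 0.45, edgeR adjusted p = 0.0394). The libraries of 9 dbi lay above those of 14 dbi in both genes. Neither call held when replicate 2 of 9 dbi, replicate 1 of 14 dbi or any 1 library of 1, 2 or 21 dai was left out, and the count was then 0. Without replicate 2 of 14 dbi the count was 1.

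At 0 dbi against 14 dbi, the estimates of 87 members were above 0 and those of 10 below, with a median log2 fold change of 0.59. The median of the 13279 other genes that could meet the rule was 0.07, and 44.2% of these lay below 0. By edgeR 0 members passed the test in either direction (0% of all genes tested were called higher and 0% lower). At an unadjusted p under 0.05 there were 11 members higher and 0 lower, and 793 of the 20745 genes tested in either direction. DESeq2 called 2 members higher and 0 lower, with the share of all genes not given here. The highest mean of a member lay at 0 dbi for 60 of the 97, at 9 dbi for 23, at 14 dbi for 9 and at 1 dai for 5. The same count was not made for other genes. The median for 9 dbi against 14 dbi was 0.05, and it took either sign over the alternatives tried (−0.56 to 0.51). The 2 libraries of 0 dbi differed over 2-fold for 46 members (47.4%), and for 25.3% of the other genes that could meet the rule.

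Many members had already gone down 1 day after the explants were cut. At 1 dai against 0 dbi, 42 of the 97 members fell by edgeR (43.3%), where 4.89% of the 20745 genes tested were called lower and 5.79% of the other genes that could meet the rule were. In the higher direction edgeR called 0 members (2.94% of all genes tested), as did DESeq2, and 0 had an unadjusted p under 0.05. The median log2 fold change of the members was −2.08, and that of all genes tested was −0.13. The estimates of 93 members were below 0 and those of 4 above. The called genes ran from −7.69 to −1.51.

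The largest falls were those of Cc07_g02160, Cc10_g11890, Cc08_g03960, Cc02_g20400 and Cc00_g11580. Cc07_g02160 had 26.6 and 22.2 CPM at 1 dai, against 2187 and 6787 CPM at 0 dbi (log2 fold change −7.69, SE 0.98, edgeR adjusted p = 0.00508). For Cc10_g11890 the estimate was −4.76 (SE 0.77, edgeR adjusted p = 0.00941). Cc08_g03960 had 70.2 and 79.3 CPM at 1 dai, against 1838 and 1410 CPM at 0 dbi (−4.65, SE 0.52, edgeR adjusted p = 0.00328). Cc02_g20400 had 21.6 and 24.4 CPM at 1 dai, against 391 and 568 CPM at 0 dbi (−4.57, SE 0.59, edgeR adjusted p = 0.00508). Cc00_g11580 had 7.38 and 7.29 CPM at 1 dai, against 107 and 199.97 CPM at 0 dbi (−4.57, SE 0.54, edgeR adjusted p = 0.00402). In Cc07_g02160, Cc08_g03960, Cc02_g20400 and Cc00_g11580 the lower library of 0 dbi was more than 10 times the higher of 1 dai. Without replicate 1 of 1 dai the count of members was 4, and without replicate 2 it was 0, where edgeR called 174 and 20 genes in all, against 1623 with both.

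**Figure D4:**
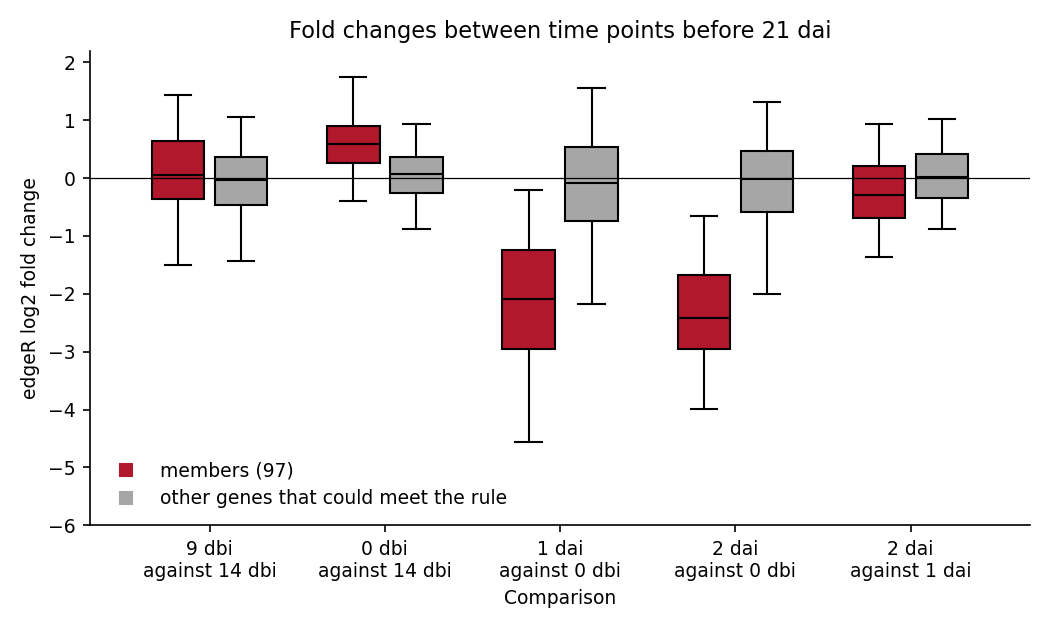
edgeR log2 fold changes in the 5 comparisons between time points before 21 dai, for the 97 members (red, left) and the 13279 other genes that could meet the rule (grey, right). Boxes show the median and quartiles and whiskers the 5th and 95th percentile of genes, and the members' medians at 1 and 2 dai against 0 dbi are −2.08 and −2.42.

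The lower levels were still there on the second day. At 2 dai against 0 dbi, 39 members fell by edgeR (40.2%), with 2.78% of all genes tested called lower, and 96 of the 97 estimates were below 0, with a median of −2.42. In the higher direction the count was 0 by edgeR (1.46% of all genes tested) and by DESeq2, and 0 at an unadjusted p under 0.05. This comparison shares the libraries of 0 dbi with the one before. Scaling by library size alone moved the median of all genes tested by 0.18 (log2) at 1 dai and by 0.26 at 2 dai, and relative to that median the members lay at −1.88 and −2.43. Cc06_g21080 had 2.33 and 3.31 CPM at 2 dai, against 47.5 and 67.7 CPM at 0 dbi (log2 fold change −4.61, SE 0.50, edgeR adjusted p = 0.00324). At 1 dai it was at 5.21 and 7.59 CPM, and at 21 dai it had 0 and 1 read. Cc11_g07700 had 3.15 and 3.29 CPM at 2 dai, against 64.6 and 42.0 CPM at 0 dbi (−4.33, SE 0.62, edgeR adjusted p = 0.0101). Its level at 1 dai was 21.6 and 22.0 CPM, and at 9 dbi it was 7.64 and 5.59 CPM, so that its CPM was low at 2 separate times before 21 dai. The fall at 9 dbi against 14 dbi was not called (−3.07, SE 0.58, edgeR adjusted p = 0.0518). The other largest falls at 2 dai were those of Cc07_g02160, Cc10_g11890 and Cc00_g11580, from −7.92 to −4.17. The count of members was 8 on the 4 libraries compared alone, and DESeq2 called 72. The shares of all genes called in these refits are not given here, so the counts show only how the calls vary. With 1 library left out, the members' median lay from −2.58 to −2.18. Few member calls remained with either library of 2 dai left out.

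Between 2 dai and 1 dai the members showed no step of this size. By edgeR 0 members passed the test in either direction (0% of all genes tested were called higher and 0% lower). At an unadjusted p under 0.05 there were 1 member higher and 7 lower, and 1760 of the 20745 genes tested in either direction. DESeq2 called 1 member lower and 0 higher, with the share of all genes not given here. The median log2 fold change was −0.29, against 0.02 for the other genes that could meet the rule. Over the 5 time points before 21 dai, 50 members changed by edgeR's F test (51.5%), and 12.3% of all genes tested did. The count was lower with 1 library of 1 or 2 dai left out, and DESeq2 called 76 members. The shares of all genes called in these refits are not given here.

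Set against 14 dbi, before any growth regulator was added, the members were lower as well. This baseline was chosen after the values at 0 dbi had been seen. At 1 dai 31 members fell (5.85% of all genes tested were called lower) and 2 rose (4.87% were called higher). At 2 dai 27 fell (2.82% lower) and 0 rose by edgeR (2.12% higher). At an unadjusted p under 0.05, 1 member was higher and 66 lower at 2 dai, and 3878 of the 20745 genes tested in either direction. The medians were −1.53 at 1 dai and −1.86 at 2 dai. The genes that rose at 1 dai were Cc10_g08870 and Cc02_g21690.

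The early step took in most members but not all of them. On the scale of log2(CPM + 0.5) of stage means, 74 of the 97 members were at least 2-fold lower at 1 and 2 dai than in the pretreatment (76.3%), and 11.7% of the 13279 other genes that could meet the rule were. There were 35 members at least 4-fold lower (36.1%, and 3.49% of the others). In 50 members all 4 libraries of 1 and 2 dai lay below all 6 of the pretreatment (8.74% of the genes that could meet the rule), and in 1 they lay above (13.9%), the exception being Cc02_g21690. The description of these genes as lost only at 21 dai thus holds for the low level of 21 dai, while most had lost a part of their level before. The rule sets a floor for the drop between 2 and 21 dai and none for the early one, so that a count of which is larger follows largely from the choice of members. In 8 members the early drop was the larger one on the log2 scale all the same, as in Cc07_g02160 (−7.24 early and −3.98 late) and Cc06_g21080 (−3.26 and −2.69).

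**Figure D5:**
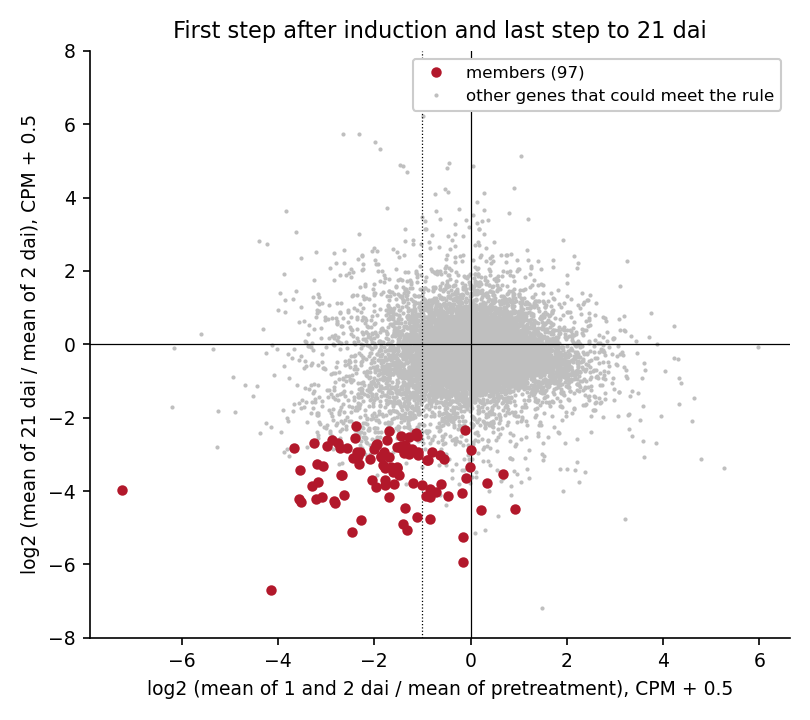
The last step, log2 of the 21 dai mean over the 2 dai mean, against the first step, log2 of the mean of 1 and 2 dai over the pretreatment mean, both with 0.5 CPM added, for the 97 members (red) and the other genes that could meet the rule (grey). The dotted line marks a 2-fold lower level at 1 and 2 dai, 74 members lie on or to the left of it, and the vertical axis holds values that chose the members.

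The remaining 23 members stayed within 2-fold of their pretreatment mean at 1 and 2 dai, as did 75.2% of the other genes that could meet the rule, and 0 members were 2-fold higher there (13.0% of the others). These 23 come closest to genes lost at 21 dai alone. Cc03_g04210, Cc10_g08870 and Cc02_g21690 were picked from them for their course after their values were seen. Cc07_g14700 was the steadiest, with 98.3 and 98.0 CPM at 14 dbi, 85.5 and 75.5 CPM at 9 dbi, 99.9 and 87.2 CPM at 0 dbi, 90.1 and 94.9 CPM at 1 dai, 83.9 and 65.6 CPM at 2 dai, and 12.9 and 15.9 CPM at 21 dai. Cc03_g04210 had 137 and 80.8 CPM at 14 dbi, 69.1 and 130 CPM at 9 dbi, 117 and 131 CPM at 0 dbi, 123 and 112 CPM at 1 dai, 112 and 100.3 CPM at 2 dai, and 12.2 and 15.5 CPM at 21 dai. Both kept more than most members at 21 dai, 15.9% and 12.5% of their pretreatment means.

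Other members of this kind had their highest mean at 1 dai. Cc10_g08870 had 175 and 351 CPM at 14 dbi, 461 and 599 CPM at 9 dbi, 634 and 621 CPM at 0 dbi, 949 and 1282 CPM at 1 dai, 544 and 245 CPM at 2 dai, and 26.3 and 40.2 CPM at 21 dai. It was higher at 1 dai than at 14 dbi (log2 fold change 2.02, SE 0.50, edgeR adjusted p = 0.031). Cc02_g21690 had 40.0 and 68.9 CPM at 14 dbi, 70.6 and 82.2 CPM at 9 dbi, 83.8 and 121 CPM at 0 dbi, 159 and 144 CPM at 1 dai, 165 and 126 CPM at 2 dai, and 4.76 and 7.29 CPM at 21 dai. It was higher at 1 dai than at 14 dbi too (1.40, SE 0.33, edgeR adjusted p = 0.027). Cc06_g20270, Cc04_g09270 and Cc04_g02120 also had their highest mean at 1 dai. The mean of Cc06_g20270 was 19.5 CPM there, hardly above its 19.0 CPM at 0 dbi. For Cc04_g09270 the libraries of 14 dbi were at 25.8 and 747 CPM, so that its course before induction is uncertain.

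In the gene order of the AUK_PRJEB4211_v1 annotation the members lie on 15 chromosomes and scaffolds, and 2 members stand directly beside each other. These are Cc10_g09590 and Cc10_g09600. Cc10_g09600 had 49.7 and 50.5 CPM at 1 dai, against 411 and 255 CPM at 0 dbi (log2 fold change −2.95, SE 0.59, edgeR adjusted p = 0.0183), and 2.58 and 5.89 CPM at 21 dai. For its neighbour the same comparison gave −1.22 (SE 0.61, edgeR adjusted p = 0.245). In all, 5 pairs of successive members lay within 10 places of each other, among them Cc01_g08950 with Cc01_g09000, Cc01_g17720 with Cc01_g17770, Cc02_g11740 with Cc02_g11770 and Cc11_g15250 with Cc11_g15340. Whether neighbours share reads was not tested.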

How the data were processed

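Single-end RNA-seq libraries of leaves and leaf explants (2 at each of 6 time points) were analysed. The authors deposited 1 table of read counts per library, not normalized, for 25574 genes and 5 rows that name no gene, which stayed out of all totals. Reads in genes were 29.2% to 59.9% of a library. Per the labels, FastQC 0.11.5, cutadapt 1.14 and HTSeq 0.10.0 were used. Which aligner, build and strand setting were used is not given in the sources used here, so antisense or near-identical genes may share or lose reads. Levels are not scaled for gene length.

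The members and lists were chosen with earlier results of these data known. Keyword lists of pathways and the promoter motifs could not be applied, since no descriptions or sequences were at hand. Genes were filtered with filterByExpr (20745 kept, all 97 members among them) and fitted with edgeR 4.0.16 (R 4.3.3, TMM, quasi-likelihood, time point as the only factor, all 12 libraries). Genes with an adjusted p under 0.05 were called (Benjamini-Hochberg, over every gene in the fit). Standard errors were derived from each fold change and its F value. Alternatives were DESeq2 1.42.0, other size factors and filters, a replicate block, a term for low mapping quality, fewer libraries, other settings of the rule and, chosen after seeing the data, 14 dbi as the baseline. Named members were the 12 widest ratios, the 10 highest levels, 3 on each side of the limit, up to 5 called per direction and comparison, and neighbours. The 2 libraries of every time point differed by more than sampling noise in a chi-square test and were kept apart. The edgeR fit was tried on simulated counts with known fold changes between 1 dai and 0 dbi and a common spread for all genes. This checks the code and says nothing about the members.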

Additional observations from a re-analysis of the deposited data

How the results depend on the processing

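The number of genes that meet the rule was 97, and 75 to 126 with other pseudocounts or size factors. It was 192 with a 3-fold limit in place of the 4-fold one and 22 with an 8-fold limit. With fewer libraries more genes can pass, by construction: 148 on the 8 libraries under 15% of reads of low mapping quality, 437 on replicate 1 alone, 190 on replicate 2 alone, and 97 to 321 with 1 library left out, 321 being the count without replicate 2 of 21 dai. The 12 members with the widest ratios met the rule in every alternative. No median log2 fold change of the members turned its sign except at 9 dbi against 14 dbi.

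With 1 library left out, members called lower at 1 dai against 0 dbi numbered 0 to 46, those at 2 dai against 0 dbi 1 to 55, and those changed over the 5 time points 21 to 56. At 9 dbi against 14 dbi 0 to 2 were then called higher and 0 to 2 lower. A lone library is assumed to vary like the other groups. DESeq2 called 72 members lower at 2 dai against 0 dbi, 76 over the 5 time points, 2 lower at 9 dbi against 14 dbi, 2 higher at 0 dbi against 14 dbi and 1 lower at 2 dai against 1 dai. The shares of all genes called by DESeq2, on the 4 libraries compared, with the replicate block and without a filter are not given here. These counts show only how the calls vary. On the 4 libraries compared, 8 were lower at 2 dai against 0 dbi and 0 higher at 9 dbi against 14 dbi. That last count was also 0 with the replicate block, with the term for low mapping quality and on the 10 libraries before 21 dai, and without a filter 1 member was lower there. With 14 dbi in place of 0 dbi, 2 members were called higher at 1 dai. Where no value shows it, the cause was not tested. The replicate numbers were not taken to pair the samples, since 5 of 15 correlations of deviations between time points were over 0.1 (−0.05 to 0.38). All 5 join time points among 14 dbi, 0 dbi, 2 dai and 21 dai (0.25 to 0.38). Replicate 1 of these had more reads of low mapping quality. Every pair with 9 dbi or 1 dai lay from −0.05 to 0.02, and 14 dbi with 0 dbi was at 0.02. The part of mapping quality in these correlations was not tested. With the replicate block 40 members fell at 1 dai against 0 dbi, 38 of them among the 42. All alternatives planned were run.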

Other observations

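Before induction the members differed more between the 2 libraries of a time point than other genes did. The libraries differed over 2-fold for 35 members at 14 dbi (36.1%), 43 at 9 dbi (44.3%) and 46 at 0 dbi (47.4%), and for 21.4%, 23.0% and 25.3% of the 13279 other genes that could meet the rule. At 1 and 2 dai this held for 6 and 9 members (6.19% and 9.28%), and for 6.82% and 6.90% of the others. At 21 dai it held for 26 members (26.8%), many of them with few reads, and for 16.7% of the others. The direction was not the same in all genes. At 0 dbi Cc05_g16570 had 107 and 19.8 CPM in replicates 1 and 2, Cc10_g08030 had 110 and 22.4 CPM, and Cc04_g02120 had 25.4 and 152 CPM. These 3 genes were picked for their difference. The members' higher level before induction and their higher spread there go together, and the part of either in the other was not tested.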
